A study of Mus musculus with 4 samples.

Results

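The phagocyte NADPH oxidase was followed here through 6 of its genes, Cybb, Cyba, Ncf1, Ncf4, Rac1 and Rac2, in mouse macrophages kept in a low-fat or a high-fat necrotic medium. The genes were taken by their symbols from the 17013 genes listed in the deposited values, and all 6 were found and passed the filter on low values. The cells were bone marrow-derived macrophages of wild-type male C57BL/6 mice, grown in M-CSF and plated on porous culture inserts, so they model macrophages made in culture and not those of a necrotic bone. In both groups the cells received artificial necrotic bone fluid (aNBF), a freeze-thaw extract of bone and marrow, from above, and from below, for 24 h, a medium prepared by freezing and thawing abdominal fat. The control group (Con) received the middle layer of that fat preparation, which is the low-fat medium, and the other group (Fat) received its fat-rich top layer. Each group had 2 libraries of RNA, and the labels do not say whether these came from separate cultures or animals, so p-values measure only the spread between these libraries.

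The phagocyte oxidase is the enzyme complex with which neutrophils and macrophages turn oxygen into superoxide, using electrons from NADPH. Its membrane part is cytochrome b558, a pair of gp91phox (Cybb), which carries the electrons, and p22phox (Cyba), which stabilises it. In a resting cell the organiser p47phox (Ncf1) and p40phox (Ncf4) wait in the cytosol, and on stimulation p47phox is phosphorylated, the cytosolic subunits move to the membrane and a Rac GTPase loaded with GTP (Rac1 or Rac2) switches the enzyme on. Loss of the cytochrome or of a cytosolic subunit causes chronic granulomatous disease, in which phagocytes take up microbes but kill them poorly. The transcription factors PU.1, IRF1 and IRF8 are known to act on oxidase genes in myeloid cells.

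Upstream sequence was available in the RefSeq table of promoters (build GRCm38.p6) for 3 of the 6 genes, Cybb, Ncf1 and Cyba. A motif of the kind bound by interferon regulatory factors, GAAA followed after any 2 bases by a second GAAA, was searched on both strands in the 300 bases from 250 before to 50 after each start site, because Irf1, Irf2 and Irf8 are among the genes described further on. Of 32851 promoters of that length, 3.44% held a match. The Cybb window held 3 matches and the Ncf1 window 1, and the letters were not found in the Cyba window. The 180 bases just before the start site are shown for both genes with a match, 5′ to 3′ along the gene, with matches in capitals. The deposited values were made on another build, GRCm39, so these positions hold for GRCm38.p6 only.
Cybb, minus strand, chrX:9469325-9469504: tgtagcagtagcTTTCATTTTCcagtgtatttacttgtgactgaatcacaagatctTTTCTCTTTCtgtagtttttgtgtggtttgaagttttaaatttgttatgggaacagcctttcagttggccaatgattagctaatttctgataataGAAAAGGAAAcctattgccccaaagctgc
Ncf1, minus strand, chr5:134229626-134229805: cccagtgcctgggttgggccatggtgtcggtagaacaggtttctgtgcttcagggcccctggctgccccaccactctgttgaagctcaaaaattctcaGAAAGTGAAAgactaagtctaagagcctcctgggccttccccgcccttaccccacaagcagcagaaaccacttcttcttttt
Counted back from the start site, where -1 is the last base before it, the Ncf1 match lay at -82 to -73 and the Cybb matches at -29 to -20, -124 to -115 and -168 to -159, the last 2 of them on the opposite strand. A match is a description of the letters and not of a bound factor.

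The authors deposited CPM, in which reads are scaled by library size, and TPM, in which gene length is scaled for as well. CPM values are used below unless TPM is named. Recovered from the CPM values, the reads assigned to genes came to between 33573852 and 40785872 in a library. The total of Con replicate 1 lay within the read depth that the paper states, and those of Con replicate 2 and both Fat libraries exceeded it. The oxidase genes had between 4569 reads (Ncf4 in Fat replicate 1) and 164910 reads (Cybb in Con replicate 2) in a library. A total of 12470 genes, those that reached 0.5 CPM in 2 or more libraries, were tested for a difference between the media by limma's two-sided test on log2(CPM + 0.1), and a gene was called at a Benjamini-Hochberg adjusted p-value under 0.05. Fold changes are given on that log2 scale, Fat minus Con, with their standard error (SE) and 95% interval. With 2 libraries per medium, the smallest p-value that an exact permutation test allows for a single gene is 0.333.

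Of the 6 oxidase genes, Ncf1 alone was called changed and was lower in Fat. Cybb, Ncf4 and Rac1 had lower values in both Fat libraries than in either Con library, with folds between 0.839 and 0.906, but were not called. Cyba and Rac2 had folds of 0.947 and 1.01. Called genes made up 9.0% of all genes tested, and genes called lower 5.0%. Both Fat libraries lay below both Con libraries in 5 of the 6 genes, against 26.2% of all genes tested, and 4 of the 6 were lower with an unadjusted p-value under 0.05, against 12.4%. Cyba counts among the 5, although its nearest Con and Fat libraries differed by only 0.001 on the log2 scale. The median log2 fold change of the 6 genes was -0.16, and that of all genes tested was 0.01. Among the 1260 tested genes with a mean level at least that of Ncf4, the least abundant of the 6 by CPM, the median was also 0.01. Of those 1260 genes, 7.38% were called lower.

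**Figure D1:**
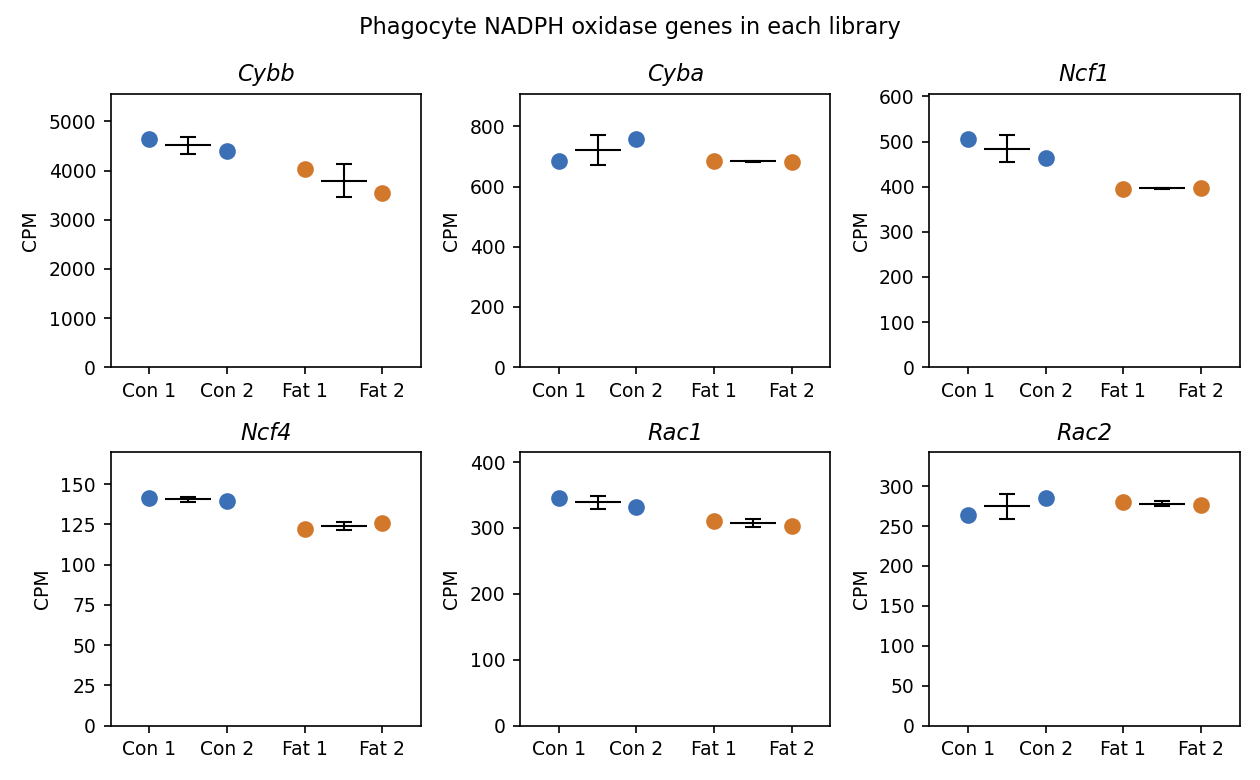
CPM of the 6 oxidase genes in each library, with each vertical axis starting at 0. Points are libraries (blue Con, orange Fat) and black bars the mean and SD of 2 libraries. In Ncf1, the values of 395.4 and 397.5 CPM in Fat lie under 505.4 and 463.2 CPM in Con, while the Rac2 values of the groups overlap.

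Cybb encodes gp91phox, the subunit through which the electrons pass, and was the 19th most abundant of the 17013 genes by mean CPM. The Con libraries had 4641 CPM (replicate 1) and 4396 CPM (replicate 2), and the Fat libraries 4031 CPM (replicate 1) and 3553 CPM (replicate 2). Both Fat libraries were below both Con libraries, but the gap between the nearest pair, 0.13 on the log2 scale, was smaller than the difference of 0.18 between the Fat libraries themselves. The means were 4518 ± 173.0 CPM in Con and 3792 ± 338.0 CPM in Fat (SD, n = 2 each). The log2 fold change was -0.26 (SE 0.11, 95% interval -0.50 to -0.01, limma adjusted p = 0.195). Without Fat replicate 2 the fold change was -0.16. DESeq2 on the recovered reads called it (adjusted p = 0.0279) and edgeR's quasi-likelihood test did not (adjusted p = 0.155).

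Cyba encodes p22phox, the smaller cytochrome subunit, which holds gp91phox in the membrane and docks p47phox. Its values were 685.8 and 757.7 CPM in Con and 685.3 and 681.6 CPM in Fat. Con replicate 1 and both Fat libraries lay close together, and Con replicate 2 stood above them. The log2 fold change was -0.08 (SE 0.07, 95% interval -0.24 to 0.09, adjusted p = 0.552).

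Ncf1 encodes p47phox, the organiser that is phosphorylated on activation and bridges the cytosolic subunits to p22phox. The Con libraries had 505.4 CPM (replicate 1) and 463.2 CPM (replicate 2), and the Fat libraries 395.4 CPM (replicate 1) and 397.5 CPM (replicate 2). The Fat libraries were nearly equal, and the gap of 0.22 to the nearer Con library exceeded the difference of 0.13 between the Con libraries (both log2). The mean fell from 484.3 ± 29.9 to 396.4 ± 1.51 CPM (SD, n = 2 each). The log2 fold change was -0.29 (SE 0.06, 95% interval -0.44 to -0.14, limma adjusted p = 0.0336). The call was lost with the TPM values (adjusted p = 0.0826), without the mean-variance trend (0.148), and without Con replicate 1 (0.0975), Fat replicate 1 (0.0926) or Fat replicate 2 (0.121), while the fold change stayed between -0.35 and -0.22 in all 13 alternatives. In the GENCODE vM21 transcripts, 5.44% of the stretches of 75 bases of Ncf1 also occur in transcripts of Gtf2ird2, so a small part of its reads could be shared.

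Ncf4 encodes p40phox, whose PX domain binds the phosphoinositide PI3P on phagosomes. Its values were 141.7 and 139.5 CPM in Con and 122.4 and 126.0 CPM in Fat. The groups were apart by 0.15 on the log2 scale at their nearest libraries, and libraries of the same group differed by 0.02 and 0.04. Even so, the log2 fold change of -0.18 (SE 0.05, 95% interval -0.30 to -0.06) was not called (limma adjusted p = 0.0805, edgeR 0.0771, DESeq2 0.121).

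Rac1 and Rac2 are closely related GTPases. Rac1 is made in most cell types and also drives actin at the cell edge, and Rac2 is largely restricted to blood cells. Rac1 was at 346.0 and 331.9 CPM in Con and at 311.1 and 302.7 CPM in Fat, with no overlap. Its log2 fold change was -0.14 (SE 0.06, 95% interval -0.27 to -0.01, limma adjusted p = 0.168). Rac2 was at 263.4 and 285.6 CPM in Con and at 280.4 and 275.8 CPM in Fat, so that both Fat values lay between the Con values. Its log2 fold change was 0.02 (SE 0.06, 95% interval -0.12 to 0.16, adjusted p = 0.881), and it was -0.04 without Con replicate 1.

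Within a library the ratio of Rac1 to Rac2 reads does not depend on how that library is scaled. It was 1.31 and 1.16 in Con and 1.11 and 1.10 in Fat, so the Fat ratios were below both Con ratios, but by less than the Con libraries differed from each other. The ratio of Cybb to Cyba was 6.77 and 5.80 in Con and 5.88 and 5.21 in Fat, and these ranges overlapped. Exons of Rac1 overlap those of Daglb, a lipase gene on the opposite strand, and 49.7% of the 75-base stretches of Rac1 transcripts lie in that shared sequence. The library kit keeps the strand, but the counting setting is not given in the sources used here, so reads of these genes may not have been told apart. Daglb was at 239.6 and 293.7 CPM in Con and 281.6 and 287.2 CPM in Fat (limma adjusted p = 0.561).

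**Figure D2:**
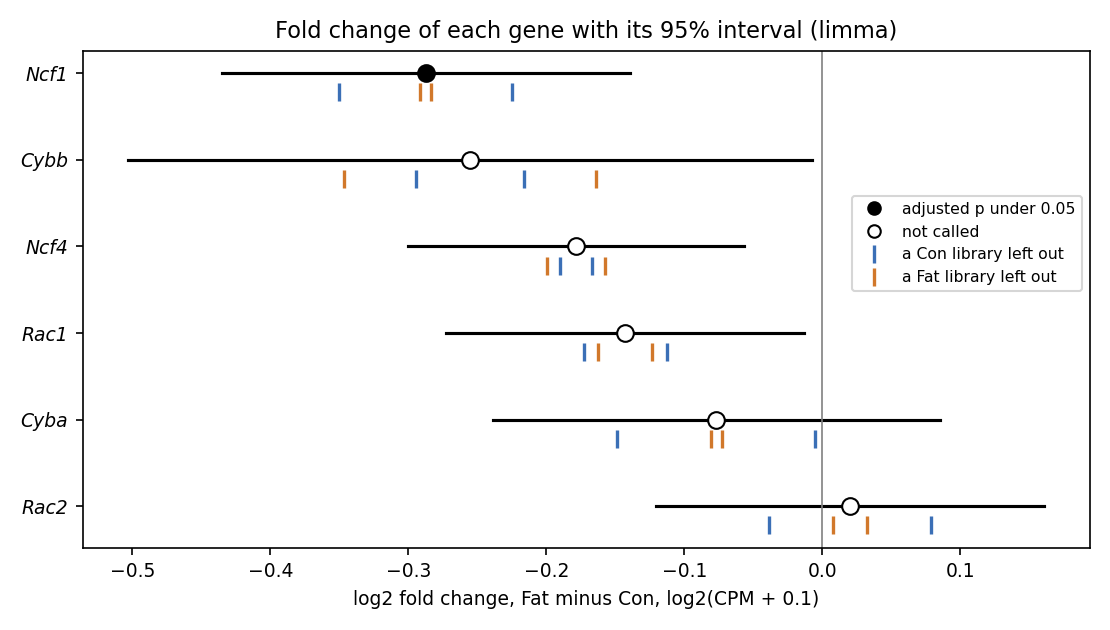
Log2 fold change of each oxidase gene (horizontal axis, Fat minus Con on log2(CPM + 0.1)), with limma's 95% interval as a line and a filled point where the adjusted p-value is under 0.05. Ticks under each line are the values with a single library left out. Ncf1 is the gene with a filled point, at -0.29, and the intervals of Cyba and Rac2 cross 0.

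Compared per gene length, the membrane subunits stood far above the cytosolic ones and the GTPases. In Con, Cybb was at 1986 to 2138 TPM and Cyba at 1977 to 2142 TPM, which overlapped. In Fat, Cyba was at 1988 to 2001 TPM and Cybb lower, at 1656 to 1881 TPM, without overlap. Ncf1 was next in Con at 334.8 to 372.5 TPM, just above Rac1 at 313.8 to 333.7 TPM, and in Fat these overlapped at 295.1 to 296.5 TPM for Ncf1 and 295.5 to 303.9 TPM for Rac1. Ncf4 and Rac2 were the lowest, and their order differed between the media. In Con, Ncf4 was at 205.8 to 213.2 TPM and Rac2 at 189.8 to 201.8 TPM, whereas in Fat Rac2 was at 201.2 to 204.7 TPM and Ncf4 at 186.6 to 191.9 TPM. These orders rest on 2 libraries per medium and were not tested.

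**Figure D3:**
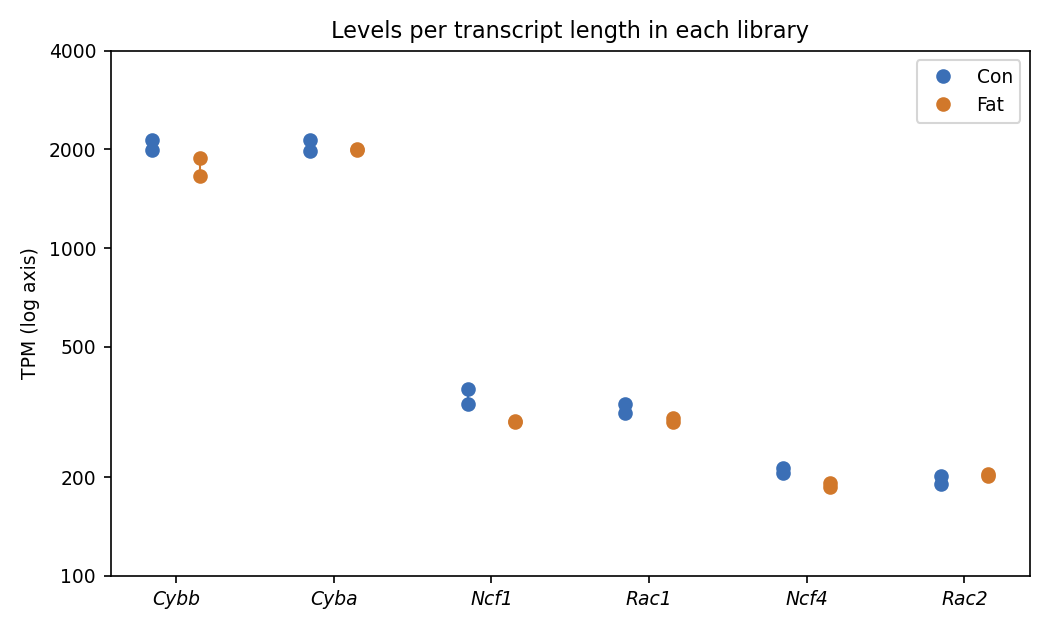
TPM of the 6 oxidase genes on a log axis, with each point a library and lines joining the 2 libraries of a medium (blue Con, orange Fat). Cybb and Cyba overlap in Con, and in Fat Cybb lies below Cyba. Ncf4 and Rac2 change places between the media.

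Added together, the 6 genes took 6583 and 6374 CPM in Con and 5825 and 5336 CPM in Fat, most of it Cybb. All 6 were among the more abundant genes, as the plot of all genes tested shows, and their fold changes were small beside those of many called genes. Among genes averaging 5 CPM or more, the 5 whose centred log2 values lay nearest to those of Cybb over the 4 libraries were 4632434I11Rik, Cpq, Rnf34, Rnf114 and Slamf9, out of 9759 compared. Their Euclidean distances to Cybb were between 0.0164 and 0.0275 on the log2 scale, and their log2 fold changes were between -0.27 and -0.24. Because these genes were picked by the same values, their fold changes were bound to lie near that of Cybb.

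**Figure D4:**
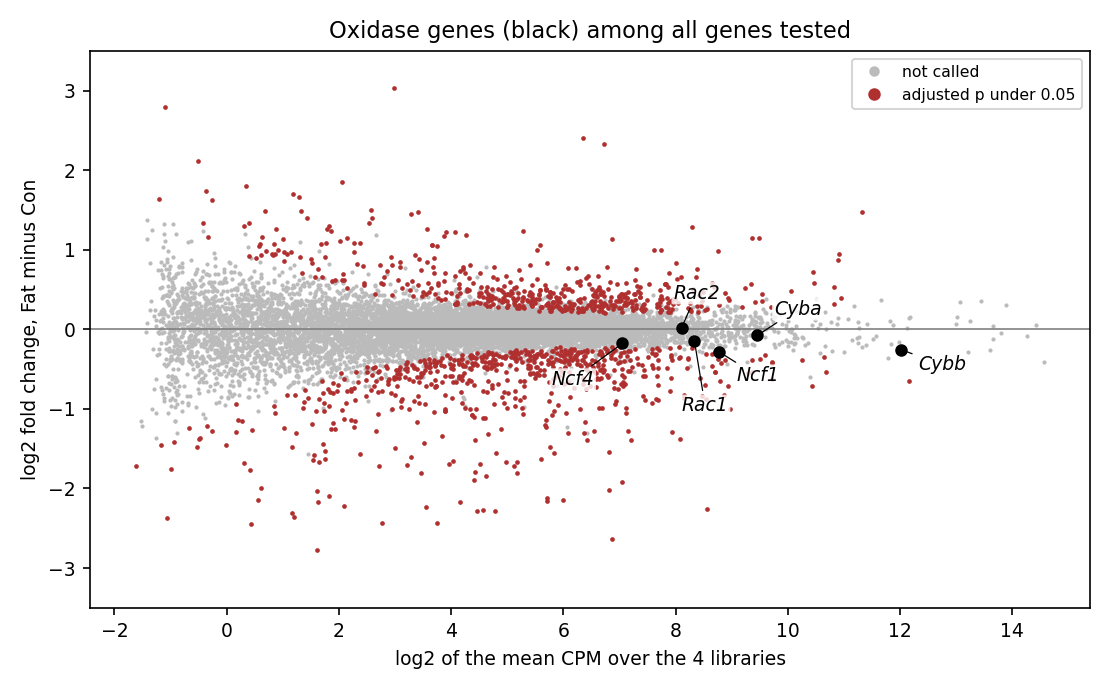
Log2 fold change (Fat minus Con) against the log2 of the mean CPM for the 12470 genes tested, of which 2 lie outside the vertical axis limit of 3.5. Red points had an adjusted p-value under 0.05, grey points did not, and black points are the oxidase genes. The 6 genes lie between -0.29 and 0.02 on the vertical axis, and Cybb lies farthest to the right.

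The other genes of the pathway were taken from hand-written lists by role. Beside the counts in these lists stand the shares of all tested genes called lower (5.0%) and higher (3.99%). This split moved with the scaling, since with TPM 366 genes were called lower and 425 higher, and higher genes made up 53.7% of the calls against 44.4% with CPM. Of 13 further genes, which include the other catalytic subunits and their organisers but not every subunit, 4 passed the filter, and limma called 0 of them, with 0 also at an unadjusted p-value under 0.05 and by edgeR and DESeq2. Noxo1, the organiser of the Nox1 oxidase, was at 1.30 and 0.933 CPM in Con and 0.991 and 0.659 CPM in Fat (adjusted p = 0.454). Nrros, which limits the oxidase by promoting the breakdown of gp91phox, was at 220.6 and 233.9 CPM in Con and 235.5 and 235.7 CPM in Fat (log2 fold change 0.05, adjusted p = 0.619).

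Among 19 tested kinases and lipid enzymes that act on the cytosolic subunits, 2 were called lower and 1 higher, with a median log2 fold change of -0.0045. Pik3cd, the leukocyte PI3-kinase p110 delta, fell from 147.6 ± 2.65 to 111.2 ± 4.79 CPM (adjusted p = 0.0076, log2 fold change -0.41). Fgr, a Src family kinase of myeloid cells, fell from 27.8 ± 2.63 to 20.8 ± 1.02 CPM (adjusted p = 0.0292). Syk, the tyrosine kinase that carries Fc receptor and integrin signals, rose from 392.6 ± 13.9 to 485.4 ± 23.8 CPM (adjusted p = 0.0268). Pik3cd kept its call with each library left out in turn, and Syk lost it without Con replicate 2 or Fat replicate 1. Fgr lost its call without Con replicate 1, Fat replicate 1 or Fat replicate 2, and also with TPM. The protein kinase C genes Prkcd and Prkcb, whose products phosphorylate p47phox, had log2 fold changes of 0.10 and 0.12 and were not called (adjusted p = 0.345 and 0.248).

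The lists for the control of Rac held 6 called genes. Of 15 tested activators, 2 were called, and both were higher. Vav3, an exchange factor that loads Rac with GTP, rose from 52.5 ± 0.0808 to 74.4 ± 2.06 CPM (adjusted p = 0.0044, log2 fold change 0.50). Elmo2, the partner of Dock exchange factors in engulfment, rose from 112.5 ± 4.59 to 152.7 ± 7.58 CPM (adjusted p = 0.00771, log2 fold change 0.44). Both kept their call with each library left out. The better known myeloid activators Vav1 and Dock2 were not called, with log2 fold changes of -0.07 and 0.00 (adjusted p = 0.538 and 0.999).

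Of 12 genes tested in the list of Rac inhibitors, 4 were called, and all 4 were lower. The list also holds Fmnl1, a formin that acts downstream of Rac and is no inhibitor, which was at 56.9 and 54.1 CPM in Con and 62.8 and 70.2 CPM in Fat (adjusted p = 0.0676). Arhgap25, a Rac GTPase activating protein of leukocytes, was at 439.7 and 523.5 CPM in Con and 576.2 and 555.3 CPM in Fat (adjusted p = 0.146). Both genes had higher values in both Fat libraries, and Fmnl1 was called higher without Fat replicate 1 (adjusted p = 0.0384) and Arhgap25 without Con replicate 2 (adjusted p = 0.0113). Chn2, which encodes the Rac GTPase activating protein beta-chimaerin, fell from 5.38 ± 0.349 to 2.22 ± 0.454 CPM (adjusted p = 0.00792, log2 fold change -1.25). Arhgap15, another Rac GTPase activating protein, fell by 0.66 (adjusted p = 0.022), Racgap1, best known for its part in cell division, by 0.42 (adjusted p = 0.0173), and Cyria, a Rac1-binding protein listed under its older symbol Fam49a, by 0.40 (adjusted p = 0.0164), all on the log2 scale. Chn2 kept its call with each library left out, and the others lost theirs without Fat replicate 2, Arhgap15 also without Con replicate 1 and Racgap1 also without Con replicate 2. The medians of the activators and inhibitors were 0.05 and -0.09 on the log2 scale.

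**Figure D5:**
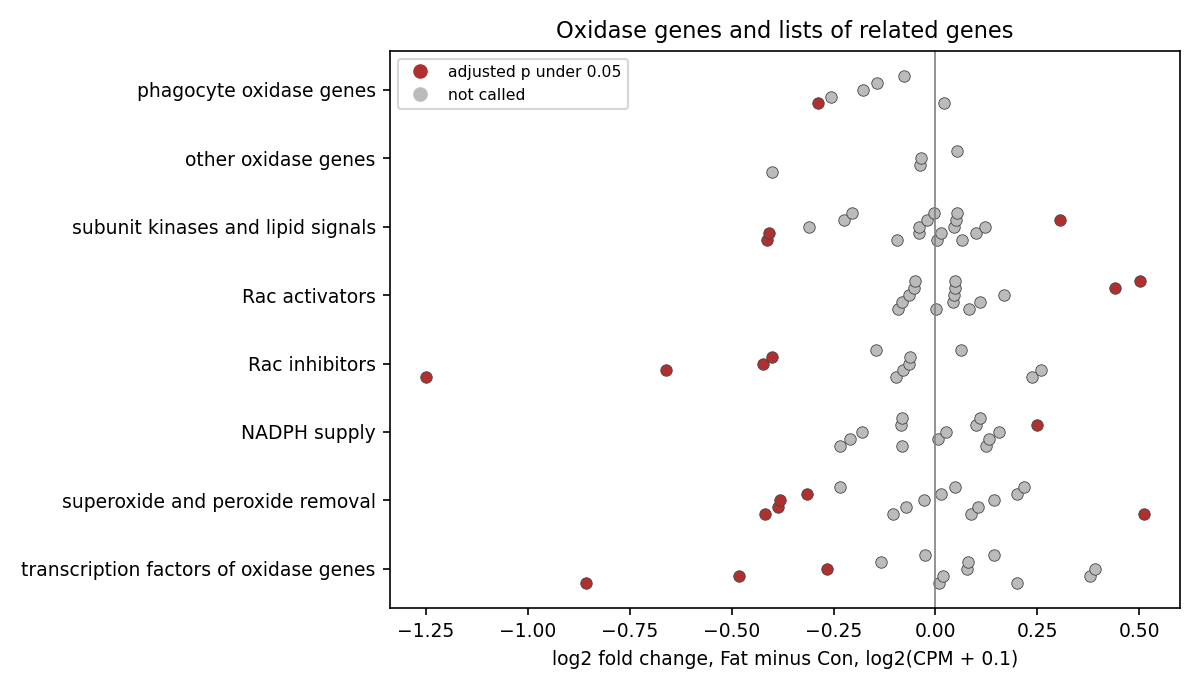
Log2 fold changes (Fat minus Con, horizontal axis) of the tested genes in each list, a point per gene, red where the adjusted p-value is under 0.05. The red points include 2 Rac activators to the right of 0, 4 Rac inhibitors and 3 transcription factors to the left, and Ncf1 among the oxidase genes.

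NADPH for the oxidase comes largely from the pentose phosphate pathway. Of 14 tested genes of NADPH supply, H6pd was called and rose from 137.5 ± 1.84 to 163.5 ± 7.54 CPM (adjusted p = 0.0372, log2 fold change 0.25). Its product works in the endoplasmic reticulum, and the call was lost without Con replicate 1, Con replicate 2 or Fat replicate 2. G6pdx, the cytosolic enzyme that opens the pathway, was at 355.7 and 359.1 CPM in Con and 378.2 and 350.0 CPM in Fat (adjusted p = 0.84). The median of the list was 0.02.

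Of 16 genes whose products remove superoxide and peroxides, 1 was called higher and 4 lower, with a median of -0.01. Sod1, the cytosolic superoxide dismutase, rose from 91.3 ± 3.75 to 130.6 ± 15.5 CPM (adjusted p = 0.014, log2 fold change 0.51). Sod2, the mitochondrial dismutase, fell from 111.8 ± 9.69 to 83.5 ± 1.29 CPM (adjusted p = 0.0144, log2 fold change -0.42). The peroxiredoxins Prdx5 and Prdx4 fell by 0.39 and 0.32 in log2 units (adjusted p = 0.0102 and 0.017), and the glutathione peroxidase Gpx3 by 0.38 (adjusted p = 0.032). Prdx4 lost its call without Fat replicate 2, and Gpx3 without Con replicate 2 or Fat replicate 1.

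Among 13 tested transcription factors known to act on oxidase genes, 3 were called, and all 3 were lower, with a median log2 fold change of 0.02 over the list. Irf1, the interferon regulatory factor induced by interferon gamma, was at 366.9 and 361.8 CPM in Con and 224.3 and 179.99 CPM in Fat (log2 fold change -0.86, SE 0.10, adjusted p = 0.00447). Irf8, which sets the monocyte and macrophage lineage, was at 216.5 and 234.4 CPM in Con and 153.9 and 168.8 CPM in Fat (log2 fold change -0.48, SE 0.07, adjusted p = 0.00825). Both kept their call with each library left out, and the groups did not overlap in either gene. Irf2 fell from 110.2 ± 4.74 to 91.5 ± 4.01 CPM (adjusted p = 0.037), a call lost without Con replicate 1 or Fat replicate 2. Spi1, which encodes PU.1, was at 212.9 and 240.5 CPM in Con and 215.0 and 240.7 CPM in Fat, and the ranges overlapped almost fully (95% interval of the log2 fold change -0.18 to 0.20, adjusted p = 0.973). Upstream sequence was available for 3 of the 6 oxidase genes, so the motif letters printed above cannot be set against their fold changes. No binding was measured, and the part of these factors in the oxidase values was not tested.

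Because neutrophils use the same oxidase and the cultures were sequenced in bulk, fewer cells of a type and less RNA per cell cannot be told apart. The macrophage markers Lyz2, Csf1r, Cd68, Itgam and Adgre1 were all present, and 2 of 9 markers were called, Fcgr1 (log2 fold change -0.88, adjusted p = 0.0123) and Mertk (-0.31, adjusted p = 0.0289). The summed level of the 9 markers, most of it Lyz2, was 36182 and 34147 CPM in Con and 28707 and 27162 CPM in Fat. Of 12 neutrophil markers tested, Mmp8 was called and was lower in Fat (log2 fold change -0.31, adjusted p = 0.0357), and their summed level was 997.2 and 893.1 CPM in Con and 824.8 and 785.6 CPM in Fat. Mmp8 alone gave 457.8 and 426.1 CPM of the neutrophil sum in Con and 373.5 and 340.1 CPM in Fat. Some markers went the other way without being called. These were Cxcr2 and Retnlg of the neutrophil list (log2 fold changes 0.28 and 0.10). In the macrophage list they were Cd68 and Itgam (0.09 and 0.07). For the adipocyte markers, 3 of 10 (Car3, Cidec and Plin4) passed the filter, through their Fat values alone, with 0 to 0.053 CPM in Con. They were called higher, but genes that entered in this way were bound to be high in Fat, so these calls are no test. The 10 markers together were at 0.206 and 0.240 CPM in Con and 12.4 and 6.63 CPM in Fat. Adipoq and Lep, which define fat cells, were at 0 in both Con libraries and at 0.341 to 0.804 CPM in Fat. Of 7 lymphocyte markers tested, limma called 0 (2 at an unadjusted p-value under 0.05, 0 by edgeR, 0 by DESeq2). Cd4 and Cd3d had the smallest adjusted p-values (0.0890 and 0.117), and the summed level of the list was 34.4 to 37.7 CPM in Con and 27.7 to 31.2 CPM in Fat. Of 7 stromal and endothelial markers tested, Dcn was called lower (adjusted p = 0.0358), and the sums of the list overlapped, at 619.9 to 642.3 CPM in Con and 519.3 to 663.9 CPM in Fat. The calls of Mertk and Mmp8 were lost without Con replicate 1 or Fat replicate 2, and that of Dcn without Con replicate 1, Con replicate 2 or Fat replicate 1. The part of these cell types in the oxidase values was not tested.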

How the data were processed

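The authors sequenced 2 Con and 2 Fat libraries as single reads from a stranded kit. The authors deposited the values per gene symbol as CPM, which carry a further scaling factor per library, and as TPM. The labels name the build GRCm39, and the aligner, counter and annotation are not given in the sources used here. Reads were recovered from the CPM steps, and 100% of values came out whole within 0.01 of a read. No per-sample column was left unmapped.

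limma 3.58.1 in R 4.3.3 with a mean-variance trend was fitted to log2(CPM + 0.1) of 12470 genes, without a replicate block, and p-values were adjusted over all of them. As alternatives, edgeR 4.0.16 and DESeq2 1.42.0 were run on the recovered reads, and limma with TPM, a pseudocount of 1 CPM, a stricter filter (5 CPM on average) or none, median ratio scaling, the block, no trend, and each library left out. All tools were tested on simulated data with planted fold changes larger than those of the oxidase genes. Changes as small as theirs were not covered. The genes and lists were chosen with earlier results of these data known. Named from each list were the called genes, or, where none was called, genes with the smallest p-values. Vav1, Dock2, Prkcd, Prkcb, Fmnl1, Arhgap25, G6pdx, Spi1, Daglb, Adipoq, Lep and the macrophage markers listed as present were added after their values were seen. Some genes were taken off the lists after their values had been seen and are not reported here, so the counts for the further oxidase genes and the transcription factors describe trimmed lists. Figures were drawn with Python 3.11.15 and matplotlib 3.10.9. Each group had 2 libraries, which limits the precision, and in Fat the Cyba and Rac2 libraries differed by less than read counting alone gives on average.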

Additional observations from a re-analysis of the deposited data

How the results depend on the processing

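Of 13 alternatives, Ncf1 kept its call in 8 and its direction in all 13. The number of oxidase genes called was 1 as reported, 0 with TPM or without the mean-variance trend, 2 with DESeq2 (Cybb and Ncf1), and 0 to 1 with each library left out. The number of all genes called, 1122, was 31 without the trend, and leaving out single libraries gave 529 to 1131. Of these, 313 (without Fat replicate 2) to 612 were lower and 216 (without Fat replicate 2) to 519 were higher, and without Con replicate 1 334 were lower. Libraries sharing a replicate number deviated together with a correlation of 0.20 over the 12470 genes, and the labels give no shared animal, batch or day, so the numbers do not establish pairs. With the replicate block 2520 genes were called, 2 of them oxidase genes, since Ncf4 (adjusted p = 0.0207) joined Ncf1 (0.00125), and Fmnl1 and Arhgap25 were called higher. Among the fold changes and ratios recomputed, signs turned in 5 genes, none of them called. Leaving out single libraries, the log2 fold change ranged from -0.038 to 0.079 for Rac2, from -0.046 to 0.247 for Daglb, from -0.081 to 0.096 for Spi1, from -0.033 to 0.034 for Dock2 and from -0.030 to 0.082 for G6pdx. With median ratios Spi1 was at -0.0014 and Dock2 at -0.0087, with DESeq2 they were at -0.0018 and -0.0085, and with edgeR Dock2 was at -0.0048. Of the 26 called genes in the lists, Ncf1 included, 13 kept their call with each library left out, 19 with TPM, 25 with DESeq2, 26 with edgeR and 1 without the trend. The cause of these changes was not tested.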
